A study of Homo sapiens with 16 samples.

Results

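A set of 39 genes of the type I interferon response was followed in RNA-seq data of SW480, an established human colon adenocarcinoma line. The genes were chosen by name, with earlier results of these data known. All 39 were found among the 66023 genes of the count table by their GENCODE symbol. Type I interferons are secreted proteins that bind a receptor of the chains IFNAR1 and IFNAR2, whose kinases JAK1 and TYK2 phosphorylate STAT proteins. STAT2 and IRF9 are parts of the complex ISGF3, which binds interferon-stimulated response elements (ISRE) in promoters and switches on antiviral genes. In epithelial cells the same genes also answer type III interferons and sensors of viral RNA and DNA, and a part of them is transcribed without any stimulus.

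The study asked what Ajuba, a LIM-domain adaptor protein, does in colon cancer cells, and it used 6 lines. Parental (n = 2) was SW480 as such. The shScrambled line (n = 2) carried a non-targeting short hairpin in the vector pLKO.1-puro, and shAjuba1 (n = 3) and shAjuba2 (n = 3) carried hairpins against a coding and a non-coding stretch of the AJUBA transcript. Ajuba OE (n = 3) carried a construct that expresses Ajuba from a CMV promoter, and Control (n = 3) carried the same construct with the Ajuba sequence excised. The 5 lentiviral lines were selected in 1.5 µg/mL puromycin, whereas for Parental no virus and no selection is described, so that virus, puromycin and time in culture cannot be told apart. Each construct is represented by 1 stable line, all lines were used at passages 10 to 18, and the labels name no treatment with interferon. The samples are called technical replicates by the study, so the p-values measure the spread between samples of a line, which may be technical.

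Between 30132396 and 69684675 read pairs were counted per sample. Levels are given in RPM, the count of a gene per 1000000 counts of its sample. AJUBA was at 88.8 to 91.6 RPM in Parental, 81.6 to 83.4 RPM in shScrambled, 47.3 to 53.5 RPM in shAjuba1, 57.1 to 68.6 RPM in shAjuba2, 89.4 to 100.5 RPM in Control and 461.8 to 566.2 RPM in Ajuba OE. The epithelial keratin gene KRT8 had a mean of at least 1930 RPM in every line, while the leukocyte gene PTPRC had at most 3 counts in any sample. The epithelial marker CEACAM5 had at most 2 counts in any sample. In shAjuba2, Control and Ajuba OE, the second sample stood apart with mitochondrial shares of 21.2%, 18.5% and 21.2% of its counts, above the other samples of its line, which ranged from 9.66% to 14.9%. Results that rest on these samples are given with and without them.

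The promoters of the genes were searched for the element that ISGF3 binds. RefSeq windows of GRCh38.p14 from 250 bases before to 50 bases after the start site were at hand for 31 of the 39 genes, and none were used for IFIT2, IFITM2, IRF7, MX2, OAS2, OASL, TRIM22 and USP18. The ISRE core (GAAA, any 2 bases, GAAA), searched on both strands, was present in 22 of these 31 genes (71%) and in 1195 of 27305 genes with a window (4.38%). The gamma-activated site (TTC, any 3 bases, GAA), to which STAT dimers bind, was present in 11 of the 31 (35.5%) and in 9.38% of all genes, and in the windows of BST2, EPSTI1, IFI27, IFITM1 and MX1 it overlapped an ISRE core. The windows below are those of genes described further on, written along the strand of the gene with the motif in capitals. Where the ISRE core lies on the other strand, the capitals show its reverse complement.
IFIT1: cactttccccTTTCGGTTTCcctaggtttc
ISG15: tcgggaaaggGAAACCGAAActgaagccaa
IFIT3: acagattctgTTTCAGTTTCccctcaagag
OAS3: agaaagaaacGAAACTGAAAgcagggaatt
SAMD9: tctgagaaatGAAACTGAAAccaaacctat
DDX60: gtgctgaaggGAAACTGAAAcctaagtgct
IFITM3: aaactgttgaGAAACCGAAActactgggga
IFI44: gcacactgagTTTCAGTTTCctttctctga
The IFIT1 window is chr10:89392510-89392539 (plus strand), with the motif beginning 103 bases before the start site. The ISG15 window is chr1:1013380-1013409 (plus strand), and the IFIT3 window is chr10:89332425-89332454 (plus strand). The windows of OAS3, chr12:112938321-112938350 (plus strand), and SAMD9, chr7:93118096-93118125 (minus strand), begin their motif 143 and 136 bases before the start site. DDX60 is shown at chr4:168318821-168318850 (minus strand), IFITM3 at chr11:320876-320905 (minus strand) and IFI44 at chr1:78649761-78649790 (plus strand).
No ISRE core was found in the windows of CMPK2, HERC6, IFI35, IRF1, IRF9, OAS1, SAMD9L, STAT2 and XAF1. Among these, IFI35, OAS1, IRF1 and IRF9 held a gamma-activated site, and those of the transcription factor genes IRF1 and IRF9 are shown next.
IRF1: acagcctgatTTCCCCGAAatgacggcac
IRF9: accacgtgatTTCTGGGAAaaggccctcc
These windows are chr5:132490879-132490907 (minus strand) for IRF1 and chr14:24161192-24161220 (plus strand) for IRF9. A match describes the letters of a window and not the binding of a factor.

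Without treatment, the 39 genes spanned a wide range of levels. Scaled by exon length as well (RPKM, that is RPM per kilobase of exon), the highest median over the 16 samples was that of IFITM2, at 103.4 RPKM, followed by IFITM3 at 35.6 RPKM and ISG15 at 25.6 RPKM. IFITM proteins block the entry of enveloped viruses, and ISG15 is a ubiquitin-like protein that is coupled to newly made proteins. The median of 18 of the 39 genes was above 1 RPKM. At the other end, IFI44 and IFI44L had a count of 0 in all 16 samples, which at 3 counts per sample allows a level of up to 0.0431 to 0.0996 RPM (counting error only). RSAD2, whose product viperin makes a nucleotide that stops viral polymerases, had at most 9 counts in any sample. In all, 6 of the 39 genes had a median count under 10, with XAF1, SAMD9L and TRIM22 as the others. The summed level of the 39 genes was between 636.8 and 837.1 RPM in every sample. IFITM2, IFITM3, STAT2 and PARP14 made up 57.2% to 67.5% of this sum.

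The interferon ligands themselves were scarcely counted. Of 16 genes of type I, II and III interferons, 6 had a count of 0 in all samples and 15 had fewer than 10 counts in each sample. The exception was IFNE, an interferon of epithelia, with 7 to 74 counts. IFNB1, the first interferon that most virus-infected cells make, had 1 count in 1 shScrambled sample and none elsewhere.

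Lines were compared in pairs with the quasi-likelihood test of edgeR, fitted across all genes. A gene was called where its p, adjusted by Benjamini-Hochberg over all genes tested, was under 0.05, and SE denotes the standard error of the log2 fold change. The test was run for the genes that passed a filter on low counts, 33 to 36 of the 39. IFI44, IFI44L and RSAD2 did not pass it in any comparison. The comparisons share control samples, so that their results are not independent of each other. Counts under other settings, such as a sample left out, come without a share of all genes unless one is stated. Where the samples of compared lines are said not to overlap, the share of all genes without overlap was not determined.

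**Figure D1:**
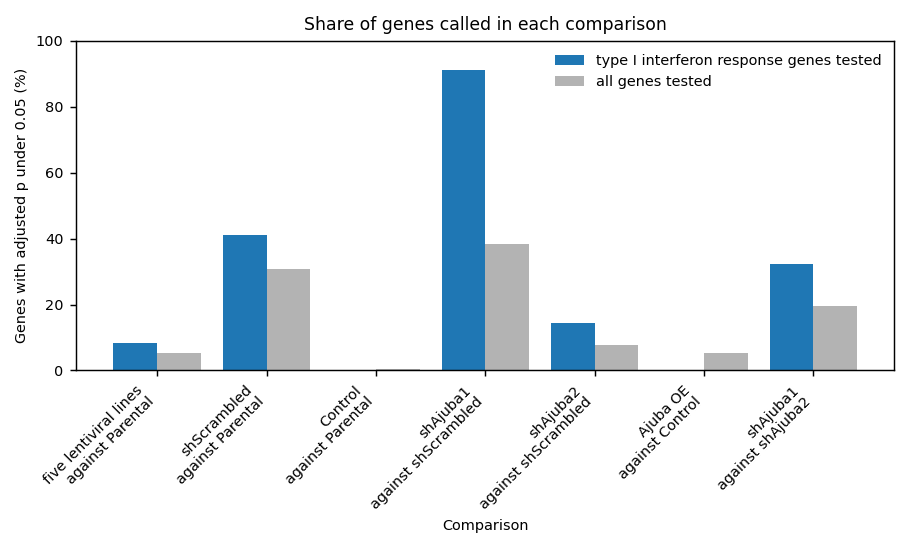
Percentage of genes with an adjusted p under 0.05 in 7 comparisons, for the interferon response genes tested (blue bars) and for all genes tested (grey bars). The blue bar was tallest for shAjuba1 against shScrambled, at 91.2% against 38.4% of all genes, and was at 0 for Control against Parental and for Ajuba OE against Control.

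**Figure D2:**
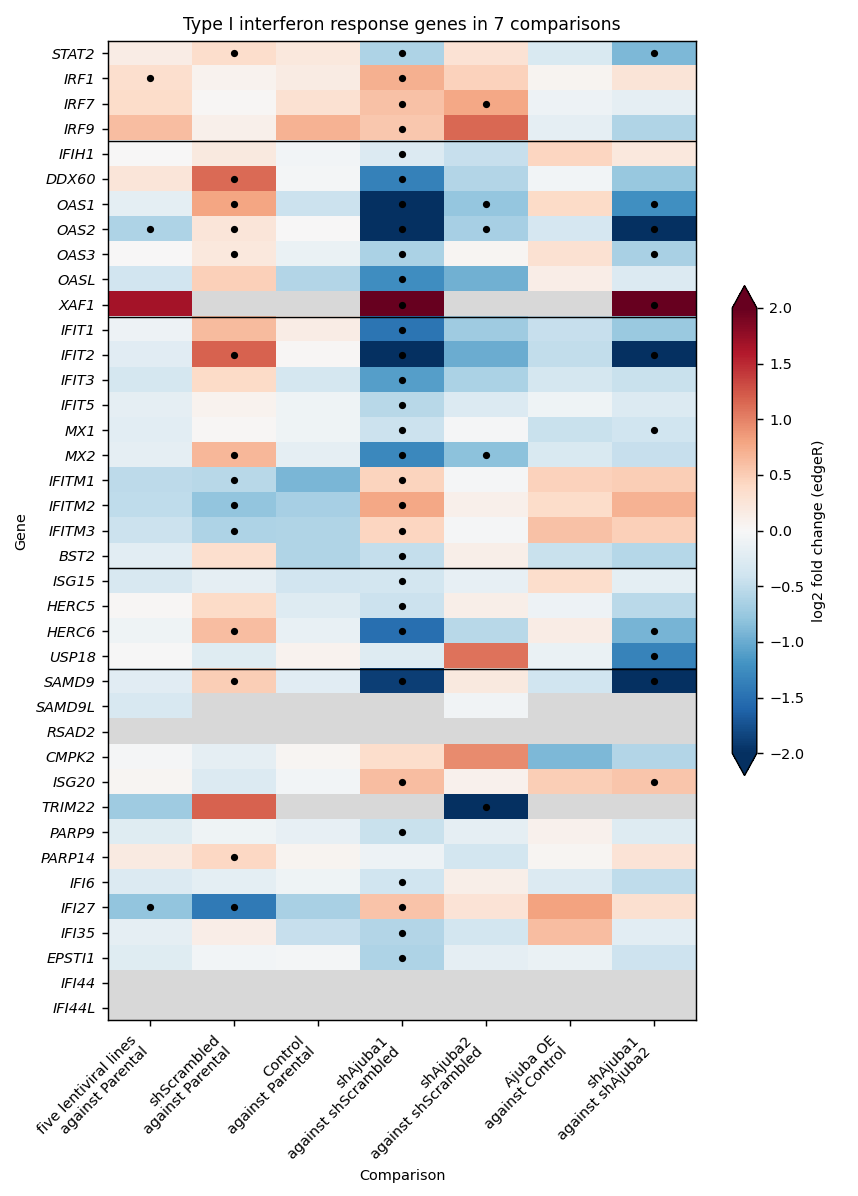
Log2 fold changes of the 39 genes (rows, grouped by role) in 7 comparisons (columns), with colours that end at the limits of the scale. Black dots mark called genes and grey cells genes not tested. The column of shAjuba1 against shScrambled has the most dots, 31, of which 22 are on lower genes.

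Parental was first set against the mean of the 5 lentiviral lines. Of 36 genes tested, 3 were called (8.33%, against 5.36% of all genes tested), with OAS2 and IFI27 lower and IRF1 higher in the lentiviral lines, beside 4.02% of all genes lower and 1.34% higher. The median log2 fold change was -0.19 over the genes tested and 0.0038 over all genes. OAS2 makes oligoadenylates that activate the antiviral nuclease RNase L. Its level was 25.0 and 23.9 RPM in Parental and had a lowest value of 4.02, a median of 18.8 and a highest value of 30.3 RPM over the 14 lentiviral samples. The log2 fold change of OAS2 was -0.62 (SE 0.0780, edgeR adjusted p = 0.000239). The ranges overlapped, and the 3 lowest samples were those of shAjuba1. IRF1, a transcription factor induced by interferons, was at 34.0 and 37.3 RPM in Parental and at 36.1 to 65.9 RPM (median 42.2) in the lentiviral samples. Its log2 fold change was 0.33 (SE 0.0833, edgeR adjusted p = 0.0317), and its ranges overlapped as well. IFI27, a small membrane protein named for its induction by interferon alpha, was at 8.13 and 8.86 RPM in Parental and at 3.00 to 13.4 RPM (median 4.82) in the lentiviral samples. Its log2 fold change was -0.79 (SE 0.212, edgeR adjusted p = 0.0435), and its ranges overlapped too. The count of called genes was 0 without the line shAjuba1, 1 without either Parental sample or without the second shScrambled sample, and 7 without the second samples of shAjuba2, Control and Ajuba OE.

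Each of the control lines was then set against Parental. In shScrambled against Parental, 14 of 34 genes tested were called (41.2%, against 30.7% of all genes tested), 10 higher and 4 lower, beside 15.0% of all genes higher and 15.6% lower. In a fit of all 16 samples the count was 6, 5 higher and 1 lower. The mitochondrial share was 15.4% and 17.2% of counts in shScrambled and 10.4% and 9.93% in Parental. Of 7 epithelial markers tested, 5 were lower and 1 higher in shScrambled, and the list of 8 summed to 3647 to 3808 RPM there and to 5663 to 6111 RPM in Parental. The part of these differences in the result was not tested. The higher genes were IFIT2, DDX60, OAS1, MX2, HERC6, SAMD9, PARP14, STAT2, OAS2 and OAS3, with log2 fold changes from 1.18 to 0.21. IFIT2 binds viral RNA and hinders its translation. It was at 0.573 and 0.635 RPM in Parental and at 1.34 and 1.41 RPM in shScrambled, and its log2 fold change was 1.18 (SE 0.263, edgeR adjusted p = 0.00152). HERC6, a ligase of the family that couples ISG15, was at 8.78 and 8.12 RPM in Parental and at 13.2 and 12.7 RPM in shScrambled. Both shScrambled samples were above both Parental samples for these genes.

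The lower genes were IFI27 and the 3 IFITM genes. IFI27 was at 3.32 and 3.10 RPM in shScrambled, below the Parental values given above, and its log2 fold change was -1.42 (SE 0.144, edgeR adjusted p = 6.31e-08). IFITM2 was at 206.5 and 220.5 RPM in Parental and at 128.2 and 119.9 RPM in shScrambled, with a log2 fold change of -0.79 (SE 0.0779, edgeR adjusted p = 4.11e-08). IFITM1 and IFITM3 had log2 fold changes of -0.55 and -0.61, and for all 4 genes both shScrambled samples were below both Parental samples. IFITM1, IFITM2 and IFITM3 are neighbouring genes of very similar sequence, so that reads may be split among them. OAS2 and OAS3 were close to the threshold in this comparison, with edgeR adjusted p = 0.0448 and 0.0373, and kept their call under 1 of 10 alternatives each.

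In Control against Parental, edgeR's quasi-likelihood test called 0 of 33 genes tested (0.370% of all genes tested were called, 0.0508% higher and 0.319% lower). At an unadjusted p under 0.05 it found 8 of the 33, beside 4219 of the 21644 genes tested. DESeq2 called 3 of the interferon response genes, and its share over all genes is not given. The smallest edgeR adjusted p was that of IFITM1, at 0.0504. IFITM1 was at 14.6 and 16.5 RPM in Parental and at 8.80, 7.30 and 8.63 RPM in Control, with a log2 fold change of -0.91 (SE 0.134). All 3 Control samples were below both Parental samples. Without the second Control sample, 3 genes were called, and 1 in a fit of all 16 samples.

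More genes were called in shAjuba1 than in any other of the 7 comparisons. Against shScrambled, 31 of 34 genes tested were called (91.2%, against 38.4% of all genes tested), 22 lower and 9 higher, beside 20.2% of all genes lower and 18.2% higher. The median log2 fold change was -0.44 over the genes tested and -0.0065 over all genes. As the genes were chosen with earlier results of these data known, the share of 91.2% is not an independent test. USP18, CMPK2 and PARP14 were the 3 genes tested that were not called. The count was 20 without the first shScrambled sample and 27 with DESeq2.

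The oligoadenylate synthetases, which sense double-stranded RNA, were all lower in shAjuba1. OAS2 was at 30.3 and 27.5 RPM in shScrambled and at 4.81, 4.02 and 4.25 RPM in shAjuba1. Its log2 fold change was -2.73 (SE 0.114, edgeR adjusted p = 7.58e-09), the smallest p of the group. OAS1 was at 5.16 and 5.13 RPM in shScrambled and at 1.40, 1.19 and 1.24 RPM in shAjuba1, with a log2 fold change of -2.01 (SE 0.153, edgeR adjusted p = 8.27e-07). For both genes the shAjuba1 samples were also below all 13 samples of the other lines. OAS3 fell by 0.63 on the log2 scale, from 52.0 and 50.3 RPM to 33.0, 31.0 and 36.1 RPM. OASL, a relative without synthetase activity, had 24 and 26 counts in shScrambled and 11, 7 and 10 in shAjuba1, and its log2 fold change was -1.24.

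The IFIT genes, a cluster on chromosome 10, were lower as well. The product of IFIT1 binds RNA that lacks the cap marks of the host. IFIT2 was at 1.34 and 1.41 RPM in shScrambled and at 0.167, 0.232 and 0.0552 RPM in shAjuba1, which is 2 to 8 counts in the knockdown samples. Its log2 fold change was -3.20 (SE 0.346, edgeR adjusted p = 1.44e-05). IFIT1 was at 1.23 and 1.23 RPM in shScrambled and at 0.565, 0.398 and 0.359 RPM in shAjuba1, with a log2 fold change of -1.45 (SE 0.256, edgeR adjusted p = 0.000696). IFIT3 was at 6.75 and 5.68 RPM in shScrambled and at 2.89, 3.29 and 2.57 RPM in shAjuba1, with a log2 fold change of -1.11 (SE 0.150, edgeR adjusted p = 9.48e-05). IFIT5 fell by 0.55 on the log2 scale. The shAjuba1 samples did not overlap the shScrambled samples in any of these 4 genes, and the share of all genes without overlap was not determined.

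Other antiviral effectors went the same way. SAMD9, which restricts poxviruses, was at 9.27 and 7.06 RPM in shScrambled and at 2.34, 2.26 and 2.07 RPM in shAjuba1, with a log2 fold change of -1.88 (SE 0.155, edgeR adjusted p = 1.5e-06). HERC6 was at 4.67, 4.88 and 4.31 RPM in shAjuba1, below the shScrambled values given above, with a log2 fold change of -1.50 (SE 0.114, edgeR adjusted p = 8.16e-07). MX2, a dynamin-like GTPase that blocks nuclear entry of retroviral genomes, was at 10.9 and 9.42 RPM in shScrambled and at 3.89, 4.02 and 4.64 RPM in shAjuba1. Its log2 fold change was -1.29 (SE 0.127, edgeR adjusted p = 6.44e-06). In each of the 3 genes every shAjuba1 sample was below both shScrambled samples. The RNA helicases DDX60 and IFIH1 had log2 fold changes of -1.35 and -0.27, and the call of IFIH1 (edgeR adjusted p = 0.0499) was kept under 1 of 12 alternatives. MX1, BST2, IFI6, IFI35, EPSTI1, PARP9, HERC5 and ISG15 fell by between 0.61 and 0.37 on the log2 scale. The call of HERC5 was kept under 4 of 12 alternatives.

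ISG15 was at 23.4 and 21.8 RPM in shScrambled and at 17.3, 17.1 and 18.5 RPM in shAjuba1. Its log2 fold change was -0.37 (SE 0.0955, edgeR adjusted p = 0.00816), and the samples did not overlap.

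**Figure D3:**
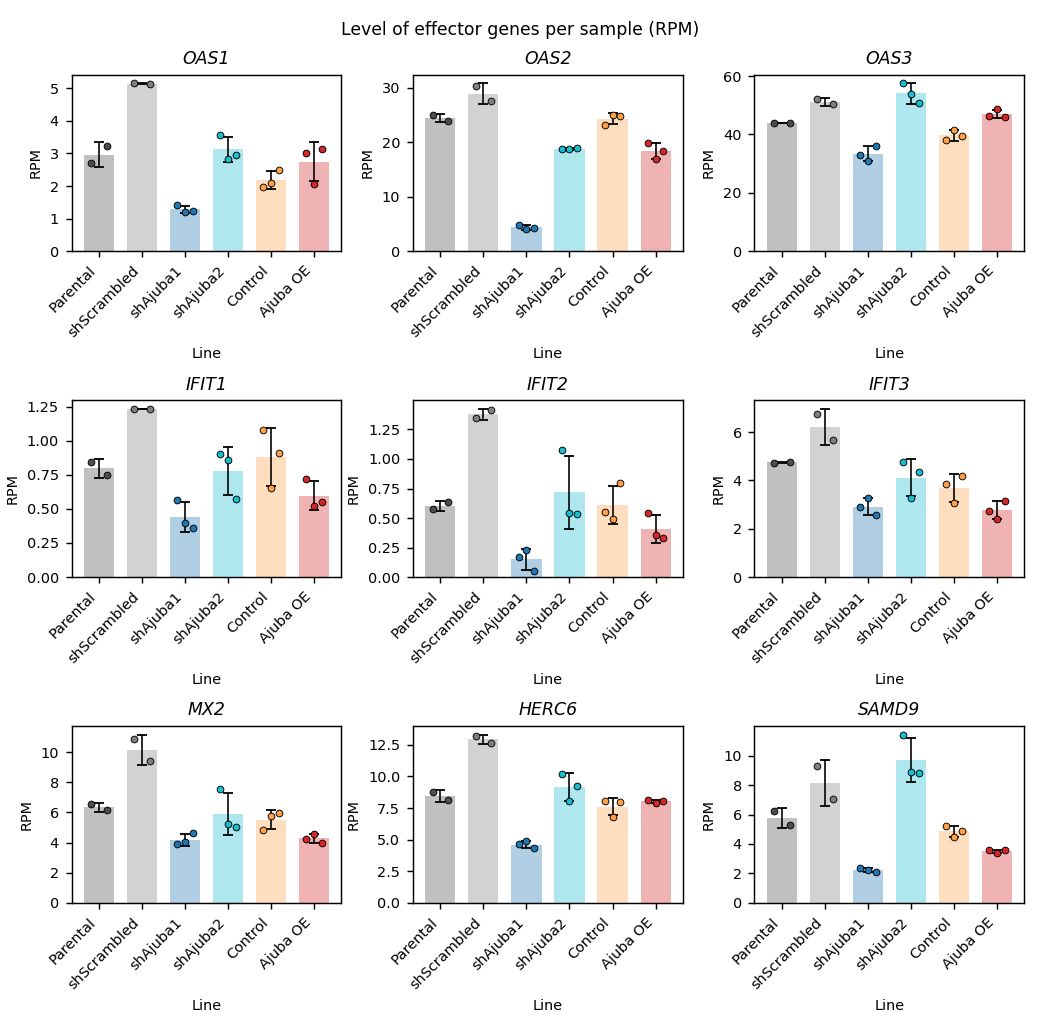
Levels of 9 effector genes in RPM by line. Points are samples, bars the mean from 0 and error bars the SD (n = 2 or 3). For OAS2 the shAjuba1 mean was 4.36 RPM, against 18.4 to 28.9 RPM in the other lines, and for OAS1 it was 1.28 RPM, against 2.18 to 5.14 RPM.

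The transcription factors of the pathway did not move as 1 group. STAT2 was at 103.7 and 116 RPM in shScrambled and at 71.3, 68.3 and 76.5 RPM in shAjuba1, with a log2 fold change of -0.62 (SE 0.0844, edgeR adjusted p = 9.32e-05). IRF1 was at 36.1 and 38.7 RPM in shScrambled and at 60.7, 58.4 and 65.9 RPM in shAjuba1, with a log2 fold change of 0.71 (SE 0.0894, edgeR adjusted p = 5.53e-05). IRF7, which amplifies interferon production, was at 12.1 and 14.2 RPM in shScrambled and at 20.5, 18.7 and 20.9 RPM in shAjuba1, with a log2 fold change of 0.59 (SE 0.108, edgeR adjusted p = 0.000962). IRF9, the DNA-binding part of ISGF3, had a log2 fold change of 0.54 (edgeR adjusted p = 0.0230). Exons of IRF1 share 22.9% of their bases with the antisense gene IRF1-AS1, and those of IRF9 share 23.9% with another gene of the same strand, which leaves their counts uncertain.

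IFITM2 was at 128.2 and 119.9 RPM in shScrambled and at 202.4, 192.5 and 248.3 RPM in shAjuba1, with a log2 fold change of 0.77 (SE 0.103, edgeR adjusted p = 8.31e-05). IFITM1, IFITM3, IFI27 and ISG20, an exonuclease of RNA, were also higher, with log2 fold changes of 0.45, 0.43, 0.57 and 0.62. XAF1, a pro-apoptotic partner of XIAP, had 5 and 3 counts in shScrambled and 17, 18 and 19 in shAjuba1, with a log2 fold change of 2.32 (edgeR adjusted p = 0.00268). For each of these genes the shAjuba1 samples were above both shScrambled samples.

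**Figure D4:**
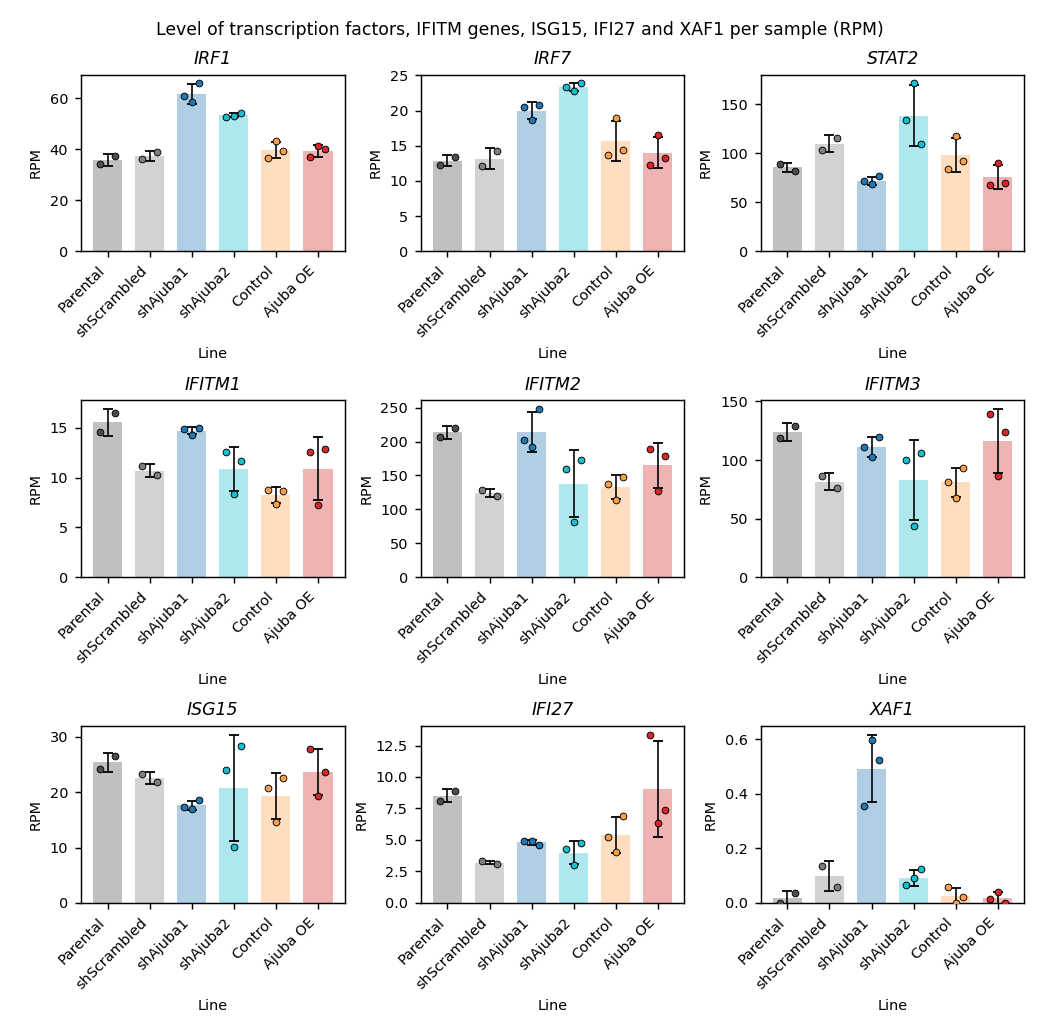
Levels of 3 transcription factors, 3 IFITM genes, ISG15, IFI27 and XAF1 in RPM by line. Points are samples, bars the mean from 0 and error bars the SD (n = 2 or 3). IRF1 means were 61.7 RPM in shAjuba1 and 53.3 RPM in shAjuba2, against 35.7 to 39.7 RPM in the other lines, while the IFITM2 mean of shAjuba1, 214.4 RPM, was near that of Parental, 213.5 RPM.

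With Parental in place of shScrambled as the control of shAjuba1, 18 genes were lower and 5 higher, where 38.1% of all genes tested were called. OAS2 had a log2 fold change of -2.51, IFIT2 of -2.03, SAMD9 of -1.39, OAS1 of -1.23, HERC6 of -0.90 and IFIT1 of -0.83, and all of these were called. IRF1, at 0.76, and IRF7, at 0.61, were called as higher. Of the genes lower against shScrambled, 17 were also lower against Parental. DDX60 (-0.23), BST2 (-0.15), IFIH1 (-0.09), HERC5 (-0.06) and OASL (-0.78) lost their call, as did ISG20 (0.35) among the higher ones. IFITM1, IFITM2 and IFITM3, at -0.11, -0.02 and -0.19, were not called, and IFI27 was called in the opposite direction, at -0.85.

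In shAjuba2 against shScrambled, 5 of 35 genes tested were called (14.3%, against 7.63% of all genes tested), 4 lower and 1 higher, beside 4.44% of all genes lower and 3.19% higher. The median log2 fold change was -0.06 over the genes tested and -0.0050 over all genes. IRF7 was at 23.4, 22.8 and 23.9 RPM in shAjuba2, above the shScrambled values given above, with a log2 fold change of 0.78 (SE 0.134, edgeR adjusted p = 0.0161). OAS2 was at 18.73, 18.72 and 18.95 RPM in shAjuba2, with a log2 fold change of -0.67 (SE 0.118, edgeR adjusted p = 0.0180). OAS1 was at 3.57, 2.84 and 2.96 RPM, with a log2 fold change of -0.77 (edgeR adjusted p = 0.0350). For OAS1 and OAS2 all 3 samples were below both shScrambled samples.

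MX2 was at 7.52, 5.23 and 5.02 RPM in shAjuba2, with a log2 fold change of -0.82 (edgeR adjusted p = 0.0473). TRIM22, an antiviral ubiquitin ligase, had 23 and 12 counts in shScrambled and 4, 2 and 5 in shAjuba2, with a log2 fold change of -2.41 (edgeR adjusted p = 0.0468). Neither gene overlapped between the lines. IFIT1, at 0.903, 0.856 and 0.576 RPM, had a log2 fold change of -0.71 (adjusted p = 0.137) and IRF1, at 52.6, 53.0 and 54.3 RPM, one of 0.46 (adjusted p = 0.0518), and neither was called by the edgeR test.

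The second shAjuba2 sample, with a mitochondrial share of 21.2%, lay apart in several genes. ISG15 was at 24.1, 10.0 and 28.4 RPM in the 3 samples, IFI6 at 12.6, 5.47 and 14.5 RPM and IFITM3 at 99.7, 43.6 and 106.1 RPM. Without it, 16 genes were called. A fit of all 16 samples called 12. Shares of all genes called in these settings are not given, so the counts cannot be set against the 7.63% of the main fit. The count was 0 without the first shAjuba2 sample or either shScrambled sample and 3 without the third shAjuba2 sample. With Parental as the control (8.14% of all genes called), 3 genes were called, IRF7 and IRF1 higher, at 0.80 and 0.52, and IFI27 lower, at -1.15, while OAS1 had a log2 fold change of 0.01.

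The knockdown lines were also compared with each other. Of 34 genes tested, 11 were called (32.4%, against 19.6% of all genes tested), and 9 of them were lower and 2 higher in shAjuba1, beside 10.1% of all genes lower and 9.47% higher. SAMD9 was at 11.4, 8.85 and 8.81 RPM in shAjuba2 and at 2.34, 2.26 and 2.07 RPM in shAjuba1, with a log2 fold change of -2.07 (SE 0.161, edgeR adjusted p = 6.29e-05). STAT2 was at 134.3, 171.8 and 109.3 RPM in shAjuba2, above its shAjuba1 values given above, with a log2 fold change of -0.90 (SE 0.163, edgeR adjusted p = 0.00468). The samples of the lines did not overlap for either gene. The count was 20 in a fit of all 16 samples, 7 without the third shAjuba1 sample and 22 without the second shAjuba2 sample. No share of all genes is given for these settings. The log2 fold change of IRF1 between these lines was 0.26 and that of IRF7 -0.17, and neither was called. AJUBA itself had a log2 fold change of -0.26 between them and was not called. Against shScrambled, AJUBA was called as lower in shAjuba1, at -0.73, and was not called in shAjuba2, at -0.46.

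In Ajuba OE against Control, edgeR's quasi-likelihood test called 0 of 33 genes tested (5.43% of all genes tested were called, 2.39% higher and 3.03% lower). At an unadjusted p under 0.05 it found 11 of the 33, beside 3928 of the 21140 genes tested. DESeq2 called 3 of the interferon response genes, and its share over all genes is not given. The smallest edgeR adjusted p was that of MX1, at 0.0787. MX1 was at 11.6, 14.5 and 13.0 RPM in Control and at 9.94, 8.85 and 8.67 RPM in Ajuba OE, with a log2 fold change of -0.45 (SE 0.117). OAS2 was at 23.2, 25.0 and 24.8 RPM in Control and at 19.9, 16.9 and 18.5 RPM in Ajuba OE, with a log2 fold change of -0.34 (edgeR adjusted p = 0.0933). IFI35 was at 7.19, 6.04 and 8.40 RPM in Control and at 11.6, 8.60 and 11.8 RPM in Ajuba OE, with a log2 fold change of 0.62 (edgeR adjusted p = 0.0877). None of these genes was called, and the samples of the lines did not overlap in any of them. The same was seen, with higher levels in Ajuba OE, for IFIH1, whose log2 fold change was 0.44 (edgeR adjusted p = 0.0877), and OAS3, whose log2 fold change was 0.31 (edgeR adjusted p = 0.112). It was also seen, with lower levels in Ajuba OE, for CMPK2 (-0.90), BST2 (-0.44), SAMD9 (-0.40) and MX2 (-0.30), which were not called either. How many of all genes were without overlap was not determined. ISG15 was at 20.7, 14.7 and 22.7 RPM in Control and at 27.9, 19.4 and 23.7 RPM in Ajuba OE, and these ranges overlapped. The count was 8, 4 higher and 4 lower, in a fit of all 16 samples, 3 without the second Ajuba OE sample and 5 without the second samples of both lines. For these settings no share of all genes is given. With Parental as the control (7.15% of all genes called), BST2, IFIT3, SAMD9 and MX1 were lower in Ajuba OE, at -1.07, -0.73, -0.66 and -0.55.

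The relay above these genes was examined with 13 receptor, kinase, STAT and inhibitor genes. In shAjuba1 against shScrambled, 3 of the 13 were lower and 3 higher, beside 20.2% and 18.2% of all genes. The lower ones were IFNLR1, the receptor chain of type III interferons (-0.86), and the kinases JAK2 (-0.53) and JAK1 (-0.51). Higher were SOCS1 and SOCS3, inhibitors of JAK signalling, at 1.28 and 0.40, and IFNGR2, at 0.69. In shScrambled against Parental, 2 of the 13 were higher and 1 lower, beside 15.0% and 15.6% of all genes. Mean levels in Parental, shScrambled and shAjuba1 were 8.82, 11.3 and 7.88 RPM for JAK2 and 80.8, 96.7 and 68.6 RPM for JAK1. For IFNLR1 they were 9.33, 9.35 and 5.18 RPM. Tests of shAjuba1 against Parental are not given for the relay genes. In shAjuba2 against shScrambled, IFNAR1 and JAK1 were lower, at -0.72 and -0.71 (2 of 13, beside 4.44% of all genes). SOCS3 was the 1 gene of the 13 called in Ajuba OE against Control, at -0.68, where 5.43% of all genes were called.

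Of 13 genes tested that sense viral nucleic acid or pass that signal on, 3 were higher and 4 lower in shAjuba1 against shScrambled, beside 18.2% and 20.2% of all genes. RIGI, the RNA helicase RIG-I, had a log2 fold change of 0.65, and MAVS, the adaptor it signals through, one of -0.40. In shScrambled against Parental 4 of the 13 were higher, beside 15.0% of all genes, among them STING1, the adaptor of the DNA sensor cGAS, at 0.41.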

How the data were processed

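RNA-seq of 16 samples of 6 SW480 lines was used. According to the study's methods, stranded mRNA libraries were sequenced as read pairs of 50 bases, aligned to hg38 (GRCh38 in the submitters' processing notes) with HISAT2 and counted on exons with featureCounts of Rsubread. The authors deposited raw counts per gene, without normalization. The strand option and the tool versions are not given in the sources used here, so that counts of genes with an antisense neighbour are uncertain.

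Samples were grouped by line from the labels. Symbols, positions and exon lengths came from GENCODE release 44, in which 56434 of the 66023 genes (99.8% of counts) were found. The promoter windows came from RefSeq. The members and lists were chosen with earlier results of these data known. Named are IFIT1, ISG15 and every member called in at least 1 comparison, with values per sample for the called members with the smallest p-values. Of the other lists, genes called in at least 1 comparison may be named, and some items are not reported here.

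The tools were edgeR 4.0.16 (on limma 3.58.1) and, as an alternative, DESeq2 1.42.0 in R 4.3.3. Tables and plots were made in Python 3.11.15 using pandas 2.3.3 and matplotlib 3.10.9. After filterByExpr (grouped by line) and TMM normalization, pairs of lines were fitted and tested in edgeR by the two-sided quasi-likelihood test, and p-values were adjusted by Benjamini-Hochberg over all genes tested. The mean of the 5 lentiviral lines was compared with Parental in a fit of all 16 samples. Standard errors (SE) were derived from the size of the log2 fold change and the root of its F statistic. The procedure was tested on simulated data with 200 changed genes. For 14 within-line sample pairs, chi-square divided by its value under counting noise was 1.87 to 14.3, so no sample was counted as a copy. Depth, 30132396 to 69684675 counts per sample, limits the 6 genes with a median count under 10 and others with few counts in the samples compared, such as IFIT2, OASL and USP18. Alternatives were other normalizations, DESeq2, no filter, the replicate number as a block, a fit of all samples, Parental as the control and each sample left out. Leaving out the second samples of shAjuba2, Control and Ajuba OE was chosen after seeing the data.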

Additional observations from a re-analysis of the deposited data

Results flagged for a closer look

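The levels of 11 genes differed between the knockdown lines by a test of the difference itself, shAjuba1 against shAjuba2 (edgeR, adjusted p under 0.05, 3 samples a line). Each hairpin is 1 line, so a differing response to knockdown cannot be told apart from a difference between lines. The log2 fold change of shAjuba1 against shAjuba2 was -2.06 for OAS2, -2.07 for SAMD9 and -2.19 for IFIT2, and in these genes all 3 shAjuba1 samples were below all 3 shAjuba2 samples. It was -1.23 for OAS1, -0.94 for HERC6, -0.90 for STAT2, -0.65 for OAS3 and -0.40 for MX1. USP18, a protease that removes ISG15 and dampens the interferon receptor, had -1.34 with 5 to 50 counts per sample. ISG20, at 0.55, and XAF1, at 2.38, were higher in shAjuba1. The call was kept under 12 of 12 alternatives for OAS1, OAS2, OAS3, STAT2, HERC6, SAMD9 and XAF1, under 11 for IFIT2, 9 for USP18, 7 for ISG20 and 4 for MX1. As shScrambled is the control of both lines, this difference does not depend on its samples. AJUBA had a log2 fold change of -0.26 between the lines and was not called. Against shScrambled it was called in shAjuba1, at -0.73, and not in shAjuba2, at -0.46.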

How the results depend on the processing

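For shAjuba1 against shScrambled, 31 genes were called and 20 to 32 with each sample left out in turn, the lowest without the first shScrambled sample. In shScrambled against Parental the count of 14 became 6 in a fit of all 16 samples and 11 to 12 with each sample left out. For shAjuba2 against shScrambled the count of 5 became 8 with DESeq2, 10 without a filter, 12 in the fit of all samples, 3 with Parental as the control and 0 to 16 with each sample left out, the highest without the second shAjuba2 sample. For shAjuba1 against shAjuba2 the count of 11 became 20 in the fit of all samples and 7 to 22 with each sample left out. For the 5 lentiviral lines against Parental the count of 3 became 6 without a filter, 0 without the line shAjuba1, 5 without the line Ajuba OE, 7 without the second samples of shAjuba2, Control and Ajuba OE, and 1 to 4 with each sample left out. For Control against Parental the count of 0 became 1 with DESeq2's size factors, 1 with library size alone, 3 with DESeq2, 6 without a filter, 1 in the fit of all samples and 0 to 3 with each sample left out. For Ajuba OE against Control the count of 0 became 3 with DESeq2, 2 without a filter, 8 in the fit of all samples, 4 with Parental as the control, 5 without the second samples of both lines and 0 to 3 with each sample left out. The cause of these shifts was not tested. For most of these settings no share of all genes called is given, so the counts do not show a shift particular to these genes. Library size alone moved the share of higher genes among all called genes of Ajuba OE against Control from 44.1% to 32.5%, and of shAjuba2 against shScrambled from 41.9% to 51.7%.

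With a replicate block in the fit, 5 genes were called for the 5 lentiviral lines, 1 for Control against Parental, 13 for shAjuba2 against shScrambled and 13 for Ajuba OE against Control. In the other comparisons the block left the count within 1.5 times. Shares of all genes called with the block are not given. Same-numbered samples deviated together in some pairs only, with correlations from -0.13 to 0.502, and the labels do not say that a number marks a shared batch, so the numbers were not taken as pairs.

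The log2 fold change of IFIT1 turned to 0.074 for the 5 lentiviral lines without the line shAjuba1, and it ranged from -0.0205 to 0.32 for Control against Parental with each sample left out, the lowest without the first Control sample. With Parental as the control it turned to -0.85 for IFI27, -0.11 for IFITM1, -0.024 for IFITM2 and -0.19 for IFITM3 in shAjuba1, to 0.011 for OAS1 in shAjuba2 and to -0.054 for ISG15 in Ajuba OE. With each sample left out, ISG15 ranged from -0.44 to 0.16 in shAjuba2 against shScrambled, the highest without the second shAjuba2 sample, and from -0.52 to 0.095 in shAjuba1 against shAjuba2, the highest without the third shAjuba2 sample. OAS2 in shAjuba1 was called under 12 of 12 alternatives, with log2 fold changes from -2.82 to -2.51. Depth leaves XAF1, TRIM22, SAMD9L and RSAD2 with few counts, and each construct is 1 line.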

Other observations

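Of 43 further interferon-induced genes found in the table, 37 were tested in shAjuba1 against shScrambled by edgeR's quasi-likelihood test, and 14 were lower and 7 higher (20.2% and 18.2% of all genes were). The lower ones included GBP1, a GTPase that coats intracellular microbes, with a log2 fold change of -2.12, the helicase DDX60L, at -1.78, and TRANK1, at -1.11. Higher were BATF2, a transcription factor, at 1.16, UBA7, the activating enzyme for ISG15, at 0.88, HELZ2 at 0.70, TRIM14 at 0.67, PARP12 at 0.51 and UBE2L6, the conjugating enzyme for ISG15, at 0.42. ISG15 itself, at -0.37, was lower in the same comparison. TRANK1 was at 3.49 and 3.66 RPM in Parental, 7.43 and 7.39 in shScrambled and 3.41, 3.55 and 3.48 in shAjuba1. DDX60L was at 2.07 and 2.02 RPM in Parental, 5.73 and 5.70 in shScrambled and 2.03, 1.36 and 1.55 in shAjuba1. GBP1 was at 0.199 and 0.224 RPM in Parental, 0.686 and 0.358 in shScrambled and 0.105, 0.166 and 0.0828 in shAjuba1. Tests with Parental as the control are not given for these further genes.

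In shScrambled against Parental, 11 of 37 of these genes were higher, beside 15.0% of all genes, among them DDX60L at 1.48, CIITA at 1.47, RTP4 at 1.24 and GBP1 at 1.22. In shAjuba2 against shScrambled, 3 of 37 were called, where 7.63% of all genes were. HELZ2 was higher, at 1.05, and RTP4 and CIITA were lower, at -1.76 and -0.92. CIITA was at 2.62 and 2.05 RPM in Parental, 5.73 and 7.10 in shScrambled and 3.59, 4.19 and 2.72 in shAjuba2. RTP4 was at 0.249 and 0.373 RPM in Parental, 0.713 and 0.795 in shScrambled and 0.344, 0.135 and 0.206 in shAjuba2. HELZ2 was at 47.8 and 55.7 RPM in Parental, 57.5 and 61.4 in shScrambled and 114.9, 144.2 and 122.3 in shAjuba2. In Ajuba OE against Control, TRIM5, which recognises retroviral capsids, was the 1 gene of 36 tested that was called, at -0.86, where 5.43% of all genes were. The ligand gene IFNE had 36 and 74 counts in shScrambled and 18, 7 and 11 counts in shAjuba1, and its log2 fold change of -1.999 was called (edgeR adjusted p = 0.00018), as was that of 1.22 in shScrambled against Parental, where it had 24 and 26 counts in Parental.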
